A study of Mus musculus with 18 samples.

Results

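The RNAs of enzymes that make, modify and store fatty acids were followed in preparations of dorsal roots and sciatic nerves. The group holds 10 genes named by their function: Acly, Acaca, Fasn, Elovl5, Elovl6, Scd1, Scd2, Dgat1, Dgat2 and Lpl. All 10 were found by symbol, out of 12697 genes with a named transcript in the tables of both tissues, and all 10 passed the filter on low counts in every comparison. The study asked which RNAs travel with Kif5A, a kinesin heavy chain that moves cargo along axons towards their ends. Axoplasm, here the supernatant of ground tissue enriched for axon content, was prepared from dorsal roots, which join the sensory ganglia to the spinal cord, and from sciatic nerves of the same C57B6 mice. The text of the series puts 5 mice into each pool and 3 independent pools into the study. From each tissue, RNA was sequenced from a precipitate with a rabbit antibody to Kif5A, from a precipitate with a rabbit isotype control IgG, and from the input axoplasm, with 3 libraries per group and 18 in all. No allele, drug or injury is named in the labels, and they give no age or sex. Whole tissue was ground, and markers of cells other than neurons, among them fat cells and Schwann cells, were measured in it, as given below.

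Fatty acid synthesis starts in the cytosol, where Acly splits citrate to acetyl-CoA, Acaca carboxylates it to malonyl-CoA, and Fasn builds palmitate from both. Elovl6 and Elovl5 lengthen saturated and polyunsaturated chains, and the stearoyl-CoA desaturases Scd1 and Scd2 place a double bond. Dgat1 and Dgat2 add the last chain to a triglyceride, and Lpl releases fatty acids from circulating lipoproteins. In peripheral nerve the pathway is known for supplying the lipid-rich myelin that Schwann cells wrap around axons, and it is also highly active in fat cells, which lie in the tissue around the nerve.

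Depth ranged from 11610004 to 22616406 counts per library. A level below is in CPM, the counts of a gene as a share of the library's counts after trimmed-mean scaling, given as mean ± SD (n = 3), and a comparison is a log2 ratio ± its standard error from edgeR's quasi-likelihood test, called at a Benjamini-Hochberg adjusted p under 0.05 over all genes tested. The p-values rest on the spread between libraries of a group, taken as independent. Replicate number was not used as a block, although both tissues came from the same mice. Markers of fat cells separated the tissues: the summed level of the 7 of 9 adipocyte markers measured in both (among them Adipoq, Fabp4, Lep and Cfd) was 121 to 219 CPM in the 9 dorsal root libraries and 5676 to 108660 CPM in the 9 sciatic nerve libraries. Within each sciatic nerve group the sum was lowest in replicate 3. Of the neuron and axon markers, the 6 of 10 measured in both tissues summed to 2770 to 3814 CPM in dorsal root input. In sciatic nerve input they summed to 1240 to 4249 CPM. Prph and Scn9a were listed for neither tissue. Scn10a and Avil were listed for dorsal root alone, at 0.250 to 1.54 CPM in its inputs when scaled by library size. Markers of myelinating Schwann cells (9 of 10 measured) summed to 22762 to 30904 CPM in dorsal root input and 18805 to 27438 CPM in sciatic nerve input, and were far below their inputs in 4 of the 6 sciatic nerve precipitates, at 4394 to 9126 CPM, while replicate 3 held 23591 CPM with IgG and 23520 CPM with Kif5A.

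**Figure D1:**
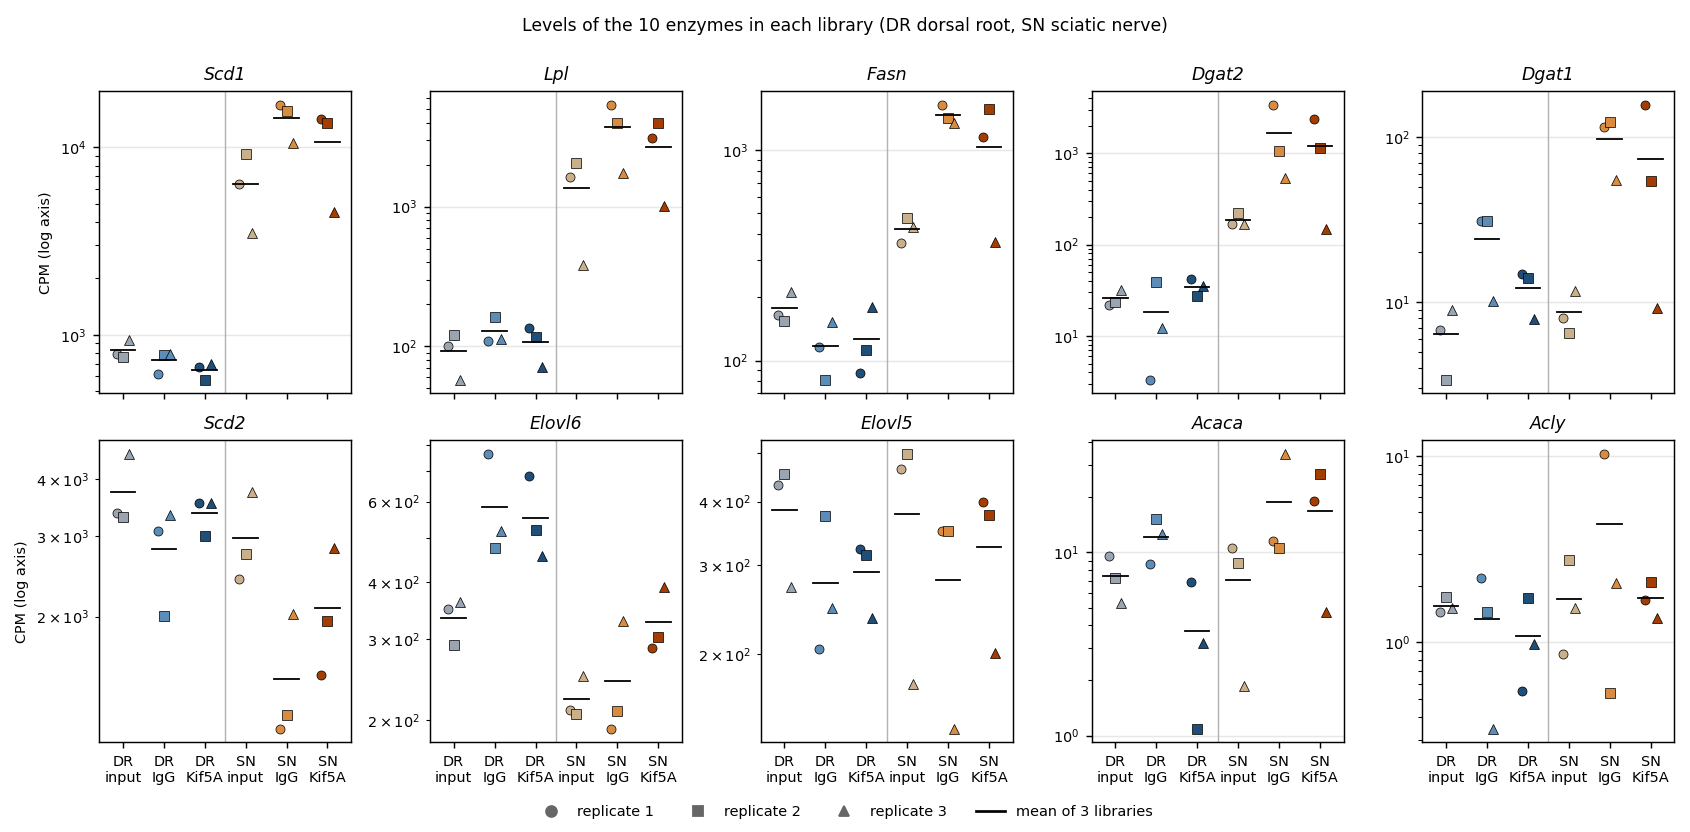
Level of each of the 10 enzymes in every library, in CPM on log axes with a range of their own, by tissue and group; symbols mark the replicates and bars the mean of 3 libraries. Scd1, Lpl, Fasn and Dgat2 are higher in every sciatic nerve library than in any dorsal root library, and the other 6 enzymes overlap between the tissues.

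The first comparison was of the starting axoplasm of the tissues. Scd1, Lpl, Dgat2 and Fasn were higher in sciatic nerve input than in dorsal root input, by 7.72-fold, 14.7-fold, 7.29-fold and 2.42-fold. The 4 calls were 4 of 10 enzymes, beside 4.12% of the 12215 genes tested in either direction and 2.33% called higher. At an unadjusted p under 0.05 there were 5 of 10, beside 14.6% of all genes, and groups without overlap in 5 of 10, beside 21.1%. The other 6 enzymes were not called, and their fitted ratios lay on both sides of 0. The median log2 ratio of the 10 enzymes was 0.30, and that of all genes tested was 0.06.

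Scd1, the desaturase that makes oleate and palmitoleate, had 791, 763 and 932 CPM in the 3 dorsal root inputs and 6367, 9183 and 3495 CPM in the 3 sciatic nerve inputs. The groups did not overlap, and replicate 3 was the lowest of the sciatic nerve and the highest of the dorsal root. The log2 ratio of Scd1 was 2.95 ± 0.35 (SE), with an adjusted p of 0.00166 by edgeR's quasi-likelihood test. Its call held in all 15 alternatives, where the adjusted p was at most 0.0417.

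Lpl, the lipase that acts on the vessel wall after secretion by fat and muscle cells, had 99.9, 122 and 57.9 CPM in dorsal root input and 1636, 2060 and 382 CPM in sciatic nerve input. Replicate 3 was the lowest in both tissues, and the groups did not overlap. The log2 ratio of Lpl was 3.88 ± 0.60 (edgeR adjusted p = 0.00701). The call of Lpl was lost without dorsal root input replicate 1 (adjusted p = 0.0595), without dorsal root input replicate 3 (0.0646) and without replicate 1 of both tissues (0.0703).

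Dgat2, the triglyceride synthase of the endoplasmic reticulum and the droplet surface, had 21.8, 23.7 and 32.0 CPM in dorsal root input and 169.6, 220.0 and 169 CPM in sciatic nerve input. The groups lay far apart, and sciatic nerve replicates 1 and 3 had nearly the same level. Its log2 ratio was 2.87 ± 0.27 (edgeR adjusted p = 0.000411), the smallest p of the 10 enzymes here, and the call held in all 15 alternatives, with an adjusted p of at most 0.0212.

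Fasn, the multi-domain synthase of palmitate, had 165, 154 and 211 CPM in dorsal root input and 363, 476 and 431 CPM in sciatic nerve input, again without overlap. The log2 ratio of Fasn was 1.28 ± 0.23 (edgeR adjusted p = 0.0171). This was the smallest of the 4 changes, and the call was lost without dorsal root input replicate 1 (adjusted p = 0.138) or 2 (0.144) and without sciatic nerve input replicate 1 (0.0513) or 2 (0.0826). It was lost too without replicate 1 (0.321) or replicate 2 (0.464) of both tissues.

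The stretches before the transcript start of Fasn, which rose, and of the elongases Elovl6 and Elovl5, which were not called, are shown because promoter sequence was at hand for these members. Each is the 250 bases upstream of the start in RefSeq (GRCm38.p6), read 5′ to 3′ on the strand of the gene, with matches to the searched motifs in capitals. The Fasn stretch lies at chr11:120824548-120824797 on the minus strand, that of Elovl6 at chr3:129532136-129532385 on the plus strand and that of Elovl5 at chr9:77917115-77917364 on the plus strand.
Fasn: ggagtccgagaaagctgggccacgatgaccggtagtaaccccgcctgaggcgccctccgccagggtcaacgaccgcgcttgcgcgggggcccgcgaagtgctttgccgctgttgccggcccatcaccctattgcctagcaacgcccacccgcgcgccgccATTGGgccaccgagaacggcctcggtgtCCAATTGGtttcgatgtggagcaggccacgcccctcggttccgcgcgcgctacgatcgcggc
Elovl6: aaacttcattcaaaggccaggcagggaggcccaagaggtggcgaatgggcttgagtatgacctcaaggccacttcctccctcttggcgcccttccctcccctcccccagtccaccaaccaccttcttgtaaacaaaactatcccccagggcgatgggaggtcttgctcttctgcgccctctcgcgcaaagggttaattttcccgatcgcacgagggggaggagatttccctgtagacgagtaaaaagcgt
Elovl5: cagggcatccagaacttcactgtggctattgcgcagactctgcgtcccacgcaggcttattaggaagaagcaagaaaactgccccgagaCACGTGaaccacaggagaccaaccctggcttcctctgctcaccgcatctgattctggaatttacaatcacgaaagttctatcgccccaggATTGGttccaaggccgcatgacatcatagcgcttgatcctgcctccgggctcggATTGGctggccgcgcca

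The searched motifs, on both strands, were CCAAT (the box bound by NF-Y), GGGCGG (the GC box), the E-boxes CACGTG and CATGTG, TCACCCCAC (the core of a sterol response element) and TATAAA. Fasn held 3 CCAAT boxes: one in reverse orientation 90 to 86 bases before the start, one forward at 62 to 58, and one in reverse at 59 to 55 that overlaps it. Elovl5 held 2 reverse CCAAT boxes and 1 CACGTG, 161 to 156 bases before the start. Elovl6 held none of the searched motifs in this window. Of all 32851 windows of this length in the RefSeq table, 33.8% held CCAAT, 32.7% GGGCGG, 12.3% CATGTG, 6.02% CACGTG, 0.496% TCACCCCAC and 12.4% TATAAA. A window was also given for Acly, which held 4 GGGCGG. The window given for Acaca lies inside the gene, at none of the starts of its listed transcripts, and is not described.

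Scd2, the desaturase form that is abundant in brain and nerve, did not follow Scd1. It had 3371, 3305 and 4529 CPM in dorsal root input and 2412, 2746 and 3737 CPM in sciatic nerve input, and the groups overlapped (log2 ratio -0.31 ± 0.25, edgeR adjusted p = 0.688). Per kilobase of transcript, Scd2 stood above Scd1 in all 9 dorsal root libraries, at 2.27 to 4.68 times the level of Scd1, and Scd1 stood above Scd2 in all 9 sciatic nerve libraries. In the 3 sciatic nerve inputs the ratio of Scd1 to Scd2 per kilobase was 1.06 to 3.78, and in the 3 dorsal root inputs it was 0.232 to 0.265. These ratios are a description without a test, since 3 against 3 libraries leave an exact two-sided permutation test no p under 0.10. The genes are related neighbours on chromosome 19 (GRCm38), Scd1 from 44394455 on the minus strand and Scd2 from 44293674 on the plus strand. Of the 50-base stretches of Scd1, 4.66% occur in a transcript of another gene, chiefly Scd2, Scd3 or Scd4, and of those of Scd2 4.01%. The read length is not stated, so the share of reads that cannot be assigned with certainty is not known.

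The elongases did not rise with Scd1. Elovl6 had 349.7, 291 and 362 CPM in dorsal root input and 209.9, 207 and 249.9 CPM in sciatic nerve input, and the groups did not overlap, yet its log2 ratio of -0.57 ± 0.22 was not called (edgeR adjusted p = 0.254). Elovl6 was called lower without sciatic nerve input replicate 3 (log2 ratio -0.68, adjusted p = 0.0145). Without replicate 3 of both tissues, Elovl6 (-0.65, 0.00192) and Scd2 (-0.40, 0.0358) were called lower. Elovl5 had 432, 453 and 271 CPM in dorsal root input and 465, 497 and 175 CPM in sciatic nerve input, with replicate 3 lowest in both and a log2 ratio of -0.02 ± 0.39 (edgeR adjusted p = 0.996). Dgat1, the other triglyceride synthase, was low in both inputs, at 6.38 ± 2.81 CPM in dorsal root and 8.69 ± 2.67 CPM in sciatic nerve (SD, n = 3), and was not called (log2 ratio 0.47 ± 0.46, edgeR adjusted p = 0.761).

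Measured per kilobase, the order of the enzymes differed between the inputs as a description of these levels. In dorsal root input Scd2 was highest at 685 ± 126 CPM per kilobase, followed by Scd1 at 171 ± 18.8, Elovl5 at 139 ± 35.7 and Elovl6 at 56.2 ± 6.36. Lpl at 22.6 ± 7.87, Fasn at 17.6 ± 3.01 and Dgat2 at 11.4 ± 2.38 came next, and the spreads of Scd1 and Elovl5 and of Lpl and Fasn overlapped. In sciatic nerve input Scd1 led at 1314 ± 589 CPM per kilobase, before Scd2 at 544 ± 126, Lpl at 331 ± 212 and Elovl5 at 136 ± 63.8, with Lpl overlapping both of its neighbours. Dgat2 at 82.4 ± 12.9, which overlapped Elovl5, then stood above Fasn at 42.1 ± 5.69 and Elovl6 at 37.3 ± 4.05, and these last overlapped. In both inputs Dgat1, Acaca and Acly closed the order.

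In the transcripts listed, the enzymes of the first steps were close to the limit of the counts. Further annotated coding transcripts of Acly and Acaca are not among those listed, so part of their RNA may be uncounted. Acly had 0.344 CPM as its lowest level and 10.3 CPM as its highest in the 18 libraries, from 630 counts in all, and its only transcript listed for both tissues was the coding Acly-203. Acaca ranged from 1.09 to 34.5 CPM. Its counts came from 3 transcripts in different mixture: the single-exon processed transcript Acaca-209 gave 766 counts in dorsal root and 150 in sciatic nerve, while the coding Acaca-202 of 56 exons gave 116 and 1165, and the intron-retaining Acaca-207 gave 243 and 1153. Acaca-209 covers 84129700 to 84133111 on chromosome 11 (GRCm38), upstream of the start of Acaca-202 at 84173122. A level of Acaca in dorsal root is thus mostly not a level of its coding transcript. In sciatic nerve Acaca-202 gave 29.2% of the counts in input, 53.6% with IgG and 44.9% with Kif5A. Of the 50-base stretches of Acaca, 29.5% occur in the processed pseudogene Gm5182. For these reasons Acly and Acaca are described by levels, and neither was called in any comparison.

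**Figure D2:**
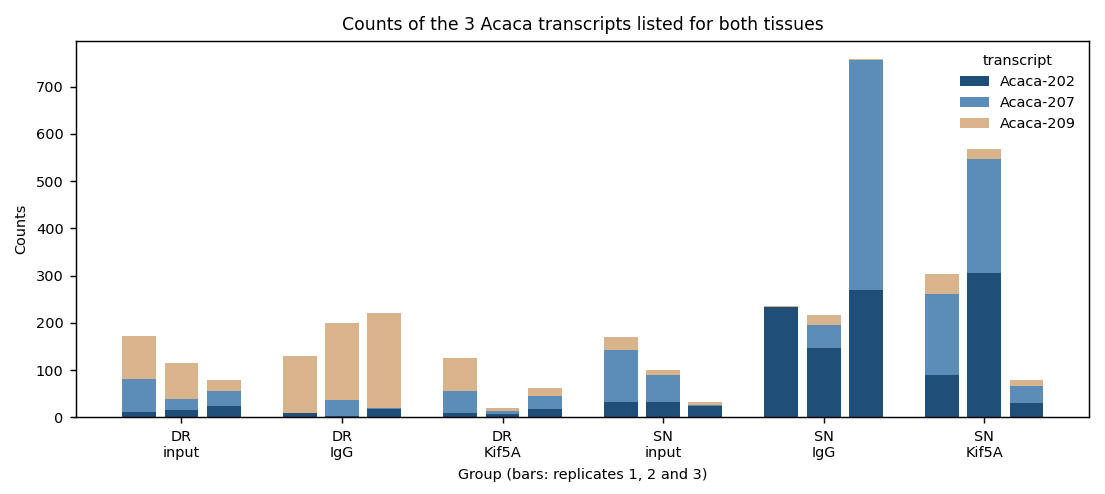
Counts of the 3 Acaca transcripts listed for both tissues, stacked for each of the 18 libraries in order of replicate within group. Acaca-209 makes up 88.0% of the dorsal root IgG counts and 2.06% of the sciatic nerve IgG counts.

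Genes around the enzymes were taken from 8 lists of the pathway. Of 67 such genes tested between the inputs, 10 were called higher in sciatic nerve and none lower. Of all 12215 genes tested, 2.33% were called higher and 4.12% in either direction. The median log2 ratio of the 67 was 0.38, and that of all genes was 0.06. They were the NADPH-making malic enzyme Me1 (log2 ratio 1.22, edgeR adjusted p = 0.0276), the acyl-CoA synthetase Acsl1 (1.20, 0.0479), the droplet protein Plin4 (4.81, 0.000499), the lipases Pnpla3 (5.15, 0.00469) and Pnpla2 (3.50, 0.0234), and G0s2, an inhibitor of Pnpla2 (1.03, 0.0452). Gpihbp1, which carries Lpl to the capillary surface, had a log2 ratio of 3.90 (edgeR adjusted p = 0.0029), and the fatty acid carrier Fabp4, an adipocyte marker too, 5.95 (0.000486). Of the regulators, the lipogenic factor Thrsp had 4.36 (0.000154) and Cebpa 1.99 (0.0194). With 1 library left out, between 5 and 27 of the 67 were called. Fabp4, Gpihbp1, Plin4, Pnpla3 and Thrsp kept the call in each of these 6 fits. They were the 5 called without dorsal root input replicate 1 or 2 and without sciatic nerve input replicate 1 or 2, and 27 were called without sciatic nerve input replicate 3. Without replicate 1, 2 or 3 of both tissues 5, 3 and 30 were called, and Pnpla3 (adjusted p = 0.0505) and Gpihbp1 (0.0633) lost the call without replicate 2. How many of all genes these fits with libraries left out called is not given here.

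None of the 11 other genes of elongation and desaturation was called between the inputs (edgeR, smallest adjusted p = 0.114), and the fitted ratio was positive for 2 of the 11. None of the 11 genes of mitochondrial oxidation tested was called (smallest adjusted p = 0.151), with a positive ratio for 10 of the 11. Beside these counts, 6 of 7 adipocyte markers, 4 of 4 skeletal muscle markers and 2 of 6 fibroblast markers were called higher in sciatic nerve input, while 3 of 3 oligodendrocyte and 3 of 6 neuron and axon markers were called lower. None of 9 Schwann cell, 6 endothelial and 6 macrophage markers was called. Of all 12215 genes tested between the inputs, 285 were called higher and 218 lower, and the median log2 ratio was 0.06. The part that these cell types have in the levels of Scd1, Lpl, Dgat2 and Fasn was not tested. In such bulk RNA, fewer cells of a type and less RNA per cell cannot be told apart.

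**Figure D3:**
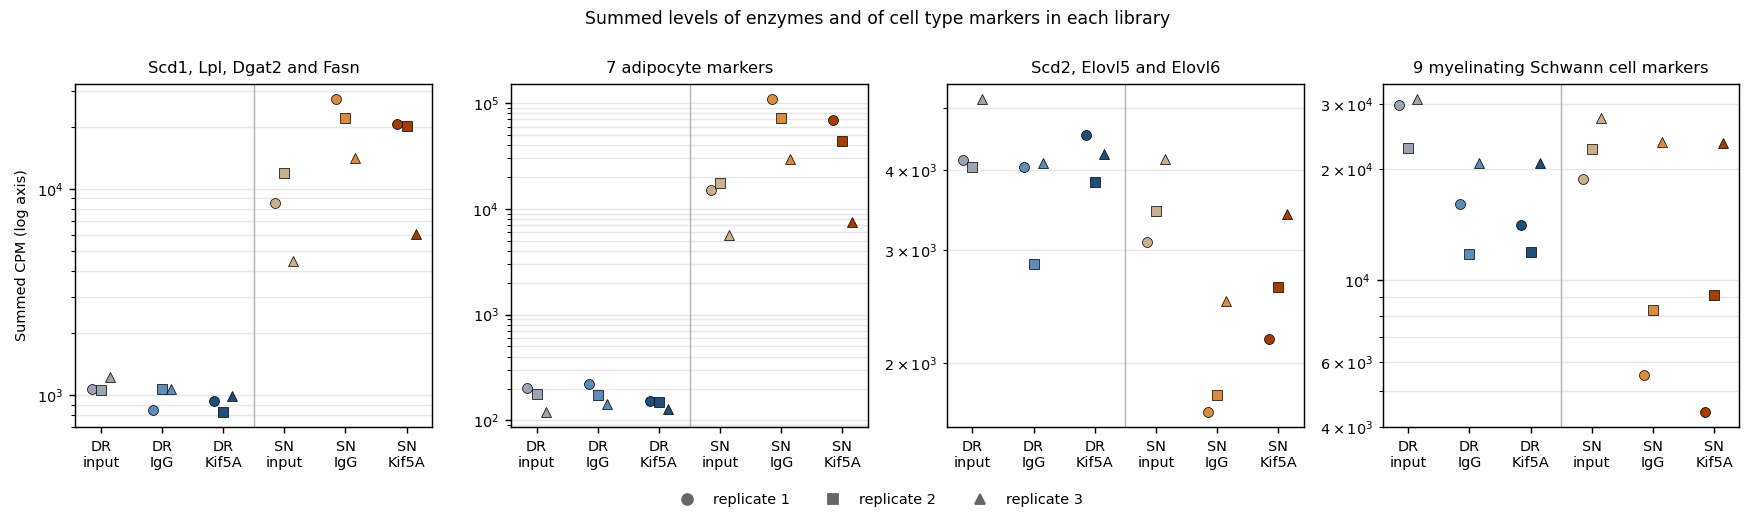
Summed CPM of 4 sets of genes in each library, on log axes with a range of their own. In sciatic nerve the sum of Scd1, Lpl, Dgat2 and Fasn and that of 7 adipocyte markers are lowest in replicate 3 of each group, where the sum of Scd2, Elovl5 and Elovl6 and that of 9 Schwann cell markers are highest.

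The comparison that the study was built for set the Kif5A precipitate against IgG. None of the 10 enzymes was called in dorsal root, beside 0.0% of 12551 genes, and none in sciatic nerve, beside 0.0478%. At an unadjusted p under 0.05 there were 0 of 10 in either tissue, beside 5.98% of all genes in dorsal root and 8.45% in sciatic nerve. DESeq2 called 0 of 10 in both, beside 150 and 405 genes in all. None of the alternatives called one. The smallest adjusted p among the enzymes was 0.935 in dorsal root and 0.75 in sciatic nerve. The median log2 ratio of the 10 enzymes was -0.07 in dorsal root, where that of all genes was -0.01, and -0.37 in sciatic nerve, where that of all genes was -0.02.

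In sciatic nerve the 3 IgG libraries had 16881, 15729 and 10513 CPM of Scd1, and the 3 Kif5A libraries had 14187, 13449 and 4508 CPM. Kif5A replicate 3 was below all others, and the groups overlapped (log2 ratio -0.38 ± 0.37, edgeR adjusted p = 0.917). Lpl had 5350.1, 3994 and 1755 CPM with IgG and 3090.1, 3966 and 1006 CPM with Kif5A, again lowest in replicate 3 of each. Its log2 ratio was -0.41 ± 0.49 (edgeR adjusted p = 0.944). Fasn had 1640, 1427 and 1344 CPM with IgG and 1160.5, 1562 and 367 CPM with Kif5A, with Kif5A replicate 3 far below the other 5 libraries (log2 ratio -0.48 ± 0.45, edgeR adjusted p = 0.908).

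The triglyceride synthases varied widely between replicates. Dgat2 had 3373, 1065 and 529.9 CPM with IgG and 2345, 1143 and 147 CPM with Kif5A, a spread larger than the difference between the groups. Its log2 ratio was -0.40 ± 0.93 (edgeR adjusted p = 0.974), and it ranged from -1.34 to 0.65 with libraries left out. Dgat1 had 114, 124 and 54.8 CPM with IgG and 157, 53.9 and 9.16 CPM with Kif5A (log2 ratio -0.36 ± 0.77, edgeR adjusted p = 0.968). Replicate 3 was the lowest library of both genes in both precipitates.

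The enzymes with positive ratios of Kif5A to IgG in sciatic nerve were Scd2, Elovl6 and Elovl5. Scd2 had 1139, 1223 and 2032 CPM with IgG and 1494, 1953 and 2821 CPM with Kif5A, here highest in replicate 3 of each group. Its log2 ratio of 0.55 ± 0.33 had the smallest adjusted p of the 10, 0.75 by edgeR. Elovl6 had 191, 209 and 329.6 CPM with IgG and 287, 304 and 390.1 CPM with Kif5A (log2 ratio 0.46 ± 0.31, edgeR adjusted p = 0.796), and Elovl5 had a log2 ratio of 0.27 ± 0.38. The groups overlapped for all 10 enzymes, beside 16.0% of all genes tested whose groups did not.

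In dorsal root the levels with the antibodies were close for most enzymes. Scd1 had 731 ± 99.5 CPM with IgG and 649 ± 65.1 CPM with Kif5A (log2 ratio -0.12 ± 0.37), and Scd2 had 2808 ± 704 and 3361 ± 317 CPM (0.31 ± 0.33). Elovl6 had 585 ± 156 and 554 ± 118 CPM, Elovl5 276 ± 88.7 and 291 ± 47.7 CPM, Fasn 117 ± 35.8 and 127 ± 47.6 CPM, and Lpl 129 ± 30.0 and 108 ± 33.7 CPM. Their log2 ratios lay between -0.20 and 0.17, with an edgeR adjusted p of 1.00 each. Dgat2 had 3.34, 38.8 and 12.2 CPM with IgG and 41.6, 27.1 and 35.4 CPM with Kif5A, where IgG replicate 1 was far below the rest (log2 ratio 1.00 ± 0.94). Dgat1 had 31.1, 30.8 and 10.2 CPM with IgG and 14.8, 14.0 and 7.92 CPM with Kif5A (log2 ratio -0.92 ± 0.78), and its groups overlapped. Acaca had 12.2 ± 3.32 CPM with IgG and 3.73 ± 2.94 CPM with Kif5A (SD, n = 3). It was the 1 enzyme of 10 whose groups did not overlap, beside 13.3% of all genes tested.

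The difference of the Kif5A to IgG ratio between sciatic nerve and dorsal root was tested in the same fit. None of the 10 enzymes was called, beside 0.0159% of 12551 genes. The count was 0 at an unadjusted p under 0.05, beside 6.37% of all genes, and 0 by DESeq2, and the smallest adjusted p was 1.00. Of the 76 pathway genes tested, none was called by edgeR in dorsal root, in sciatic nerve or in this difference. At an unadjusted p under 0.05 there were 3, 5 and 5, beside 5.98%, 8.45% and 6.37% of all genes. DESeq2 called 0, 2 and 0, beside 150, 405 and 187 genes in all. The smallest edgeR adjusted p in sciatic nerve, 0.187, was that of Soat1, a sterol acyltransferase, with a log2 ratio of 2.40. Cpt1c, a neuronal relative of the carnitine palmitoyltransferases, had -1.97 (adjusted p = 0.196), Fabp4 -1.56 (0.304) and Acsl1 -0.88 (0.437). All 7 adipocyte markers had negative ratios of Kif5A to IgG in sciatic nerve and none was called, with a median of -0.66.

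**Figure D4:**
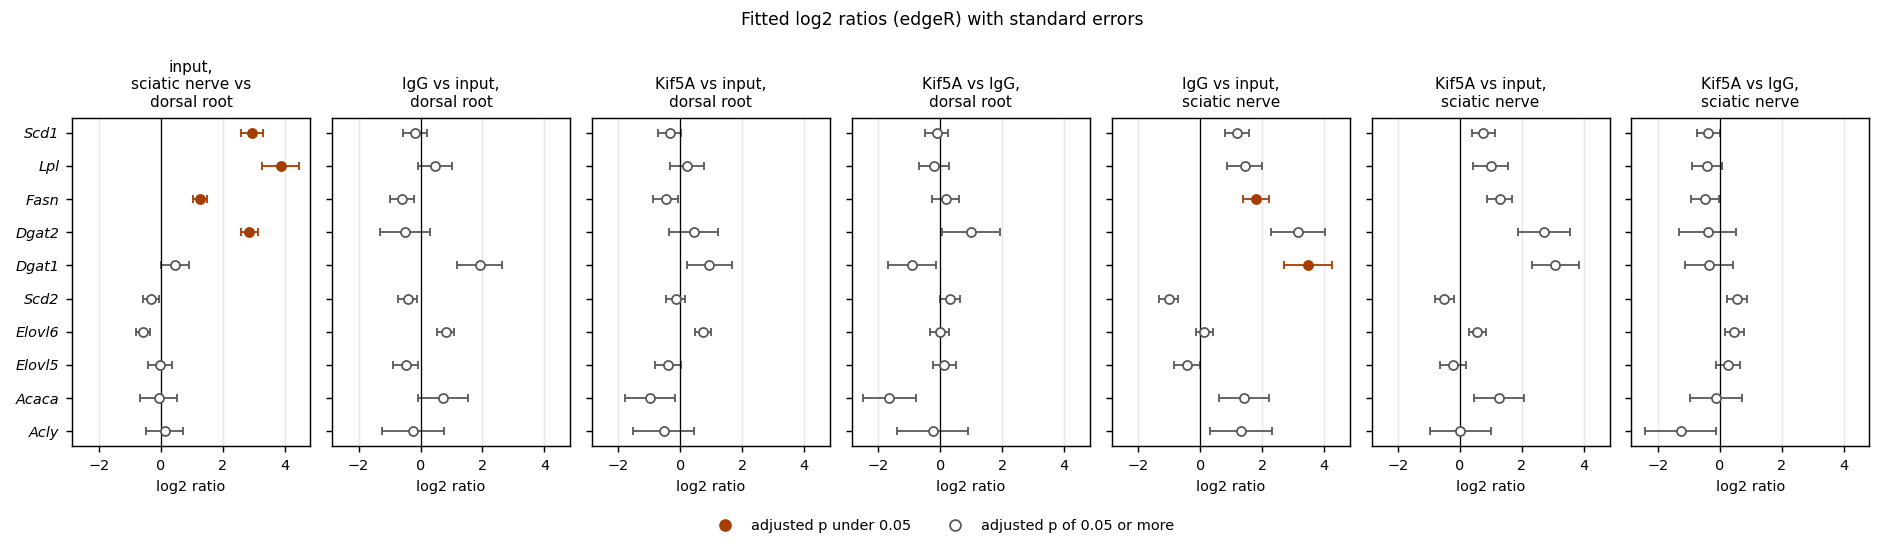
Fitted log2 ratio of each enzyme with its standard error in 7 comparisons, filled where the edgeR adjusted p was under 0.05. Scd1, Lpl, Fasn and Dgat2 are filled between the inputs, Fasn and Dgat1 between IgG and input in sciatic nerve, and none in a comparison with Kif5A.

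The IgG precipitate was then set against input, to show what the control itself carries. In sciatic nerve Dgat1 and Fasn were higher with IgG than in input, by 11.2-fold and 3.47-fold. They were 2 of 10 enzymes, beside 3.74% of 12681 genes called in either direction and 1.37% called higher. Fasn had 363, 476 and 431 CPM in input against 1640, 1427 and 1344 CPM with IgG, and the groups lay far apart (log2 ratio 1.80 ± 0.41, edgeR adjusted p = 0.0279). Dgat1 had 7.95, 6.47 and 11.7 CPM in input against 114, 124 and 54.8 CPM with IgG (log2 ratio 3.49 ± 0.77, edgeR adjusted p = 0.0268).

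Both calls depended on which library was left out. Dgat1 kept its call without IgG replicate 1 or 3 and lost it without IgG replicate 2 (adjusted p = 0.0511) and without input replicate 1 (0.0875), 2 (0.0972) or 3 (0.0565). Fasn kept its call without IgG replicate 3 and lost it without IgG replicate 1 (0.0546) or 2 (0.0511) and without input replicate 1 (0.102), 2 (0.0808) or 3 (0.0636). Both were lost without replicate 1 of every group (0.176 for Dgat1 and 0.255 for Fasn) and without replicate 2 (0.280 and 0.227). Fitted on the 9 sciatic nerve libraries alone, an alternative chosen after seeing the data, Dgat1 had an adjusted p of 0.0741 and Fasn of 0.0797. Without replicate 3 of every group, 6 enzymes were called, Dgat1, Dgat2, Fasn, Lpl and Scd1 higher and Scd2 lower. That fit also called 19 of the 76 pathway genes, against 11 with all libraries. The share of all genes called in that fit is not given here, so these counts are not read as particular to the enzymes.

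The other enzymes of sciatic nerve fell on both sides of the input. Dgat2 had 169.6, 220.0 and 169 CPM in input and 3373, 1065 and 529.9 CPM with IgG, with no overlap, and just missed the threshold (log2 ratio 3.15 ± 0.86, edgeR adjusted p = 0.0504). Scd1 had a log2 ratio of 1.18 ± 0.39 (edgeR adjusted p = 0.097), also without overlap, and Lpl of 1.44 ± 0.57 (0.167), with overlap. Scd2 had a log2 ratio of -1.02 ± 0.31 (edgeR adjusted p = 0.0742), and all 3 IgG libraries lay below all 3 inputs. Elovl6 (0.13 ± 0.27) and Elovl5 (-0.43 ± 0.42) were not called. In 6 of 10 enzymes the groups did not overlap, beside 24.1% of all genes tested, and 6 of 10 had an unadjusted p under 0.05, beside 19.2%. DESeq2 called 5 of 10, beside 1412 genes in all. Dgat2 (adjusted p = 0.0271) and Scd2 (0.0296) were called by edgeR without IgG replicate 3.

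In dorsal root no enzyme was called between IgG and input, beside 1.23% of 12681 genes. At an unadjusted p under 0.05 there were 2 of 10, beside 19.4%. DESeq2 called 1 of 10, Elovl6, beside 1413 genes in all. Elovl6 had 763, 475 and 517 CPM with IgG against 349.7, 291 and 362 CPM in input (log2 ratio 0.81 ± 0.27, edgeR adjusted p = 0.116). Dgat1 had 31.1, 30.8 and 10.2 CPM with IgG against 6.81, 3.39 and 8.95 CPM in input (log2 ratio 1.91 ± 0.73, edgeR adjusted p = 0.159). In both genes the groups did not overlap, nor in Fasn, which makes 3 of 10 beside 30.4% of all genes. Without replicate 3 of every group, Elovl6 (adjusted p = 0.0323) and Dgat1 (0.0158) were called. Fasn had a log2 ratio of -0.60 ± 0.40 in dorsal root, against 1.80 in sciatic nerve, and the difference of 2.40 ± 0.57, tested after seeing the data, had an edgeR adjusted p of 0.0813. Fasn passed in that test without dorsal root IgG replicate 3 (0.0393) and, with Scd1 (0.0436), without replicate 3 of every group (0.00976). For Dgat2 this difference was 3.67 ± 1.17 (edgeR adjusted p = 0.186). None of 10 enzymes passed, beside 0.442% of all genes, with 3 at an unadjusted p under 0.05, beside 11.5%. DESeq2 called 2 of 10, beside 550 genes in all.

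Kif5A against input shares the input libraries with the comparison of IgG against input, so the values are only set side by side. None of the 10 enzymes was called in either tissue by edgeR, beside 0.0% of 12681 genes in dorsal root and 0.00789% in sciatic nerve. At an unadjusted p under 0.05 there were 1 and 3 of 10, beside 8.39% and 6.07% of all genes. DESeq2 called 0 and 1 of 10, beside 168 and 48 genes in all. In sciatic nerve Dgat1 had a log2 ratio of 3.07 ± 0.76 (edgeR adjusted p = 0.506, and 0.015 by DESeq2), Dgat2 of 2.70 ± 0.85 (0.581), Fasn of 1.28 ± 0.40 (0.582), Lpl of 0.98 ± 0.56 (0.87) and Scd1 of 0.76 ± 0.38 (0.839). In sciatic nerve the groups of Elovl6 alone did not overlap, 1 of 10 beside 17.4% of all genes. The tissue difference of this ratio was called for none of 10 enzymes, beside 0.0% of all genes, with 2 at an unadjusted p under 0.05, beside 0.86%, and 0 by DESeq2. Without replicate 3 of every group, edgeR called Dgat1 (3.97, adjusted p = 0.0211) and Fasn (1.79, 0.0188). In the authors' deposited table, which gives ratios per transcript, Lpl had a log2 fold change of 1.11 with an FDR of 0.0293 and Dgat2 of 1.98 with an FDR of 0.0441 against input, while Scd1 had an FDR of 0.323. In the same authors' deposited table, Kif5A against IgG in sciatic nerve gave an FDR of 0.428 for that transcript of Lpl and 0.735 for Dgat2.

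In dorsal root the enzyme with the smallest p of Kif5A against input was Elovl6, with 684, 519.9 and 457 CPM against 349.7, 291 and 362 CPM (log2 ratio 0.73 ± 0.27, edgeR adjusted p = 0.446). Its precipitates lay above its inputs with both antibodies. The groups of Elovl6 and Scd1 did not overlap, 2 of 10 enzymes beside 31.4% of all genes tested. When libraries were scaled by their size alone, the median log2 ratio of all genes moved from 0.06 to 0.39 in this comparison and that of Scd2 from -0.15 to 0.17, so that Scd2 stayed below the median of all genes under both scalings.

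Of the 76 pathway genes, none was called with Kif5A against input by edgeR in either tissue. At an unadjusted p under 0.05 there were 6 in dorsal root and 16 in sciatic nerve, beside 8.39% and 6.07% of all genes. DESeq2 called 2 and 1, beside 168 and 48 genes in all. Of the same 76 genes, 10 were called higher and 1 lower with IgG against input in sciatic nerve. Of all 12681 genes tested there, 1.37% were called higher and 3.74% in either direction. The median log2 ratio of the 76 was 0.77 where that of all genes was 0.01. Higher were Gpihbp1 (log2 ratio 5.22, edgeR adjusted p = 0.016), Fabp4 (2.87, 0.016), the desaturase family member Fads3 (1.81, 0.0139), Plin4 (2.79, 0.0435), Thrsp (2.65, 0.024) and Cebpa (2.46, 0.0236). Higher too were G0s2 (2.14, 0.042), Acsl1 (1.27, 0.0437), Cpt1c (2.16, 0.0281) and Acadm, a dehydrogenase of fatty acid oxidation (1.35, 0.0376), and Soat1 was lower (-2.97, 0.0124). With 1 library left out, the count was 5 and 8 without IgG replicates 1 and 2, 17 without IgG replicate 3, and 2, 1 and 3 without input replicates 1, 2 and 3. Soat1 was the 1 gene that kept its call in each of these 6 fits. Without replicate 1 or replicate 2 of every group none of the 76 was called, Soat1 included (adjusted p = 0.14 and 0.216), and without replicate 3 there were 19. How many of all genes these fits called is not given here. In dorsal root 1 of 76 was called, the oxysterol receptor Nr1h2 (4.50, edgeR adjusted p = 0.044), beside 1.23% of all genes. Leaving out 1 library gave 3 calls without IgG replicate 3 and none without any of the other 5. The tissue difference of IgG against input was called for 1 of 76, Acsl1 (2.35, edgeR adjusted p = 0.0334), beside 0.442% of all genes. That call of Acsl1 was lost without dorsal root input replicate 1 (adjusted p = 0.0889), 2 (0.0952) or 3 (0.0693) and without sciatic nerve input replicate 2 (0.0724) or 3 (0.0664), and 5 genes were called without sciatic nerve IgG replicate 3. Beside these counts, 3 of 7 adipocyte markers, Fabp4, Lep and Adipoq, were called higher with IgG than in sciatic nerve input, and all 7 ratios were positive, with a median of 2.48. The 3 calls of adipocyte markers became 1, 2 and 6 without sciatic nerve IgG replicates 1, 2 and 3. They became 1, 0 and 1 without sciatic nerve input replicates 1, 2 and 3. Without replicate 1 or replicate 2 of every group 0 were called, and without replicate 3 there were 6. Of the endothelial markers 1 of 6 endothelial markers was called higher and 1 of 6 neuron and axon markers lower. The summed level of the 7 adipocyte markers was 5676 to 17396 CPM in input, 29748 to 108660 CPM with IgG and 7552 to 69671 CPM with Kif5A. The part of fat cell RNA in the ratios of the enzymes was not tested.

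Over the 18 libraries the levels of Scd1, Lpl, Fasn and Dgat2 moved together. As a description across libraries that share tissue and replicate, Pearson's r of log2(CPM + 1) was 0.98 between Scd1 and Lpl, 0.95 between Scd1 and Fasn and 0.94 between Scd1 and Dgat2. Within the 9 sciatic nerve libraries r was 0.96, 0.88 and 0.88, and within the 9 dorsal root libraries it was -0.39, 0.52 and 0.29. Between Fasn and Lpl, Fasn and Dgat2, and Dgat2 and Lpl, r was 0.76, 0.90 and 0.81 in sciatic nerve. In dorsal root these pairs had r of -0.87, -0.05 and -0.04. Scd2 went the other way from Scd1 in sciatic nerve, with r of -0.91 over its 9 libraries and 0.28 over those of dorsal root.

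The genes with the most similar profile were sought among 7073 others. For Scd1 they were Fabp4 (r = 0.99), Adipoq (0.99) and Tmem45b (0.99), and for Lpl they were Cfd (0.98), Fabp4 (0.98) and Adipoq (0.98). Fasn was nearest to Gpihbp1, Thrsp and Tusc5 (0.96 each), and Dgat2 to Ccnd2 and Acaa1b (0.96 each). Scd2 was nearest to Ube2ql1 (0.96), to Cldn19, a tight junction gene of myelin (0.96), and to Jam3 (0.95), and Elovl6 to Katnal1 (0.92), Efcc1 (0.91) and the myelin gene Pmp22 (0.90). Within the 9 dorsal root libraries r ranged from -0.23 to 0.35 for the 3 genes nearest Scd1, 0.02 to 0.74 for Lpl and 0.04 to 0.65 for Fasn. It ranged there from 0.73 to 0.90 for Scd2 and from 0.86 to 0.96 for Elovl6. Within the 9 sciatic nerve libraries r was 0.94 to 0.97 for Scd1, 0.90 to 0.94 for Lpl and 0.92 to 0.96 for Fasn. For Scd2 it was 0.96 to 0.97 there, and for Elovl6 it ranged from 0.56, with Pmp22, to 0.94. Dgat1 was nearest to C4b (0.94), Elovl5 to Msi2 (0.83), Acaca to Zeb2 (0.83) and Acly to Hars (0.77).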

How the data were processed

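RNA was sequenced from Kif5A precipitates, IgG precipitates and input axoplasm of dorsal root and sciatic nerve (SMART-Seq v4, per the labels' protocols). The authors deposited 1 table per tissue with raw counts per transcript and library, their log2 fold changes and their FDR (an adjusted p-value). CASAVA 1.8.2, edgeR and mm10 are named, per the submitters' processing notes; the aligner, counting rule and strand use are not stated there. A further 42 per-library columns were not used. Counts were summed per gene over the 16878 named transcripts of both tables; unnamed rows held at most 0.237% of a library. Genes were filtered with filterByExpr and tested with edgeR 4.0.16 (TMM scaling, robust quasi-likelihood; R 4.3.3): 12 precipitate libraries for Kif5A against IgG, all 18 for comparisons with input, 6 inputs between tissues. DESeq2 1.42.0 was an alternative, beside other scalings, filters, fitted libraries, a replicate block and left-out libraries. The fits were also run on simulated counts with known changes, and the outcome is not given here. Deviations of same-numbered libraries had r of 0.101, 0.308 and 0.346 in Kif5A against input in sciatic nerve. Between the inputs r was 0.241, 0.150 and 0.403. The highest r with another number was 0.102, 0.238 and -0.266 in the first and 0.200, 0.289 and -0.204 in the second. In Kif5A against IgG in both tissues and Kif5A against input in dorsal root, the same number gave the highest r in each replicate. With the block, the 4 enzyme calls between the inputs were kept. Named genes are the 10 enzymes and, per list and comparison, up to 4 genes past the threshold and up to 3 of the smallest p without overlap. The enzymes and lists were chosen with earlier results of these data known. One gene of similar profile is not reported here.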

Additional observations from a re-analysis of the deposited data

How the results depend on the processing

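Counts of enzymes called changed as follows. DESeq2 called 1 for Kif5A against input in sciatic nerve, 1 for IgG against input in dorsal root, 5 for IgG against input in sciatic nerve and 2 for the tissue difference of IgG against input, where edgeR called 0, 0, 2 and 0. For IgG against input in sciatic nerve, fitting only those groups called 0 and fitting the table and libraries of that tissue called 0; fitting only the groups compared called 1 for the tissue difference. With counts summed over all named transcripts of each tissue's table, 3 enzymes were called for IgG against input in sciatic nerve. Leaving libraries out gave 0 to 2, 0 to 2, 0 to 6 and 0 to 2 in these 4 comparisons and 2 to 6 between the inputs; the cause was not tested. With the replicate block, 4 enzymes were called for IgG against input in sciatic nerve, Dgat1, Fasn and Lpl higher and Scd2 lower. No other count of enzymes changed. Deviations of same-numbered libraries had r of -0.012, 0.070 and 0.053 there, beside at most 0.027, 0.063 and -0.039 with another number. The labels do not tie replicate numbers to pools. For the fits with libraries left out, the share of all genes called is not given here.

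Ratios that changed sign were all uncalled. Scaled by library size alone, Kif5A against IgG in dorsal root gave 0.019 for Elovl6, Kif5A against input 0.17 for Scd2, IgG against input 0.051 for Scd1, and the inputs 0.043 for Elovl5. With libraries left out, Kif5A against IgG in dorsal root ranged from -0.17 to 0.42 for Fasn, -0.22 to 0.21 for Elovl6, -0.14 to 0.42 for Elovl5, -0.27 to 0.026 for Scd1 and -0.52 to 0.031 for Lpl. In sciatic nerve it ranged from -0.041 to 0.51 for Elovl5, -1.60 to 0.16 for Dgat1 and -1.34 to 0.65 for Dgat2. Kif5A against input ranged from -0.26 to 0.036 for Scd2 and -0.035 to 0.49 for Lpl in dorsal root and from -0.56 to 0.033 for Elovl5 in sciatic nerve. IgG against input in sciatic nerve ranged from -0.15 to 0.28 for Elovl6, and the inputs from -0.30 to 0.32 for Elovl5.

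Over all genes, DESeq2 called 150 for Kif5A against IgG in dorsal root, 405 in sciatic nerve and 187 for the tissue difference where edgeR called 0, 6 and 2, 168 for Kif5A against input in dorsal root where edgeR called 0, and 1413 and 1412 for IgG against input in dorsal root and sciatic nerve where edgeR called 156 and 474, 550 for its tissue difference where edgeR called 56, and 48 for Kif5A against input in sciatic nerve where edgeR called 1. Library size alone gave 203 higher and 99 lower for IgG against input in dorsal root, against 71 and 85. It moved the median log2 ratio of all genes from 0.06 to 0.30 there and from 0.02 to 0.20 for Kif5A against input in sciatic nerve. The low counts of Acly and Acaca limit any statement on them.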

Other observations

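Some genes of fat storage were listed for sciatic nerve alone and so entered no test here. Scaled by library size, the droplet coat gene Plin1 had 1.24 ± 1.20 CPM in input, 19.4 ± 6.41 CPM with IgG and 7.50 ± 7.26 CPM with Kif5A (SD, n = 3). Cidec, which enlarges droplets, had 2.83 ± 1.00, 55.3 ± 21.9 and 33.5 ± 35.6 CPM in the same order. Lipe, the hormone-sensitive lipase, had 0.979 ± 0.817, 9.63 ± 1.15 and 3.98 ± 4.00 CPM. Pparg, the receptor that drives fat cell formation, had 0.924 ± 0.588, 16.3 ± 7.08 and 8.48 ± 6.47 CPM, and Mlxipl, a glucose-sensing activator of lipogenic genes, had 2.32 ± 1.24, 39.6 ± 32.4 and 16.1 ± 12.1 CPM. For each of these 5 genes the Kif5A libraries held their lowest level in replicate 3, at 0.347 CPM for Plin1 and 3.12 CPM for Cidec.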
